A study of Mus musculus with 6 samples.

Results

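The alpha-defensin genes and other secretory products of Paneth cells were examined in colorectal tumors with and without epithelial p53. The 34 genes comprise every row of the expression table whose name is Defa followed by a number, which gives 28 alpha-defensins, and 6 further genes, Lyz1, Mmp7, Ang4, Itln1, Pla2g2a and Nod2, out of 54167 genes in all. They were chosen by their measured levels in these same tumors and by how those levels differed between genotypes, so the genotype values below are a description and support nothing by themselves. RNA was sequenced from 6 tumors, 3 of Trp53fl/fl mice, which carry loxP sites around both Trp53 alleles and no Cre, so that the gene is intact, and 3 of Pvillin-Cre + Trp53fl/fl (VP) mice, whose villin promoter drives Cre and thereby deletes Trp53 in the intestinal epithelium only. Stromal and immune cells of VP tumors keep the gene. Mice of both genotypes were C57BL/6J according to the labels, received 10 mg/kg azoxymethane (AOM), a carcinogen, at 8 weeks of age, and then cycles of 7 days of 2.5% dextran sulfate sodium (DSS) in drinking water, an agent that causes colitis. Tumors were taken on day 98, and the study's methods describe male mice. The labels do not state that each tumor came from a separate mouse, so p-values measure only the spread between these tumors.

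Paneth cells are secretory epithelial cells at the base of the crypts of the small intestine. They store alpha-defensins (cryptdins in mice), lysozyme and other antimicrobial proteins in granules and release them into the crypt. In the mouse, the protease Mmp7 (matrilysin) cuts pro-defensins into their active form. The healthy mouse colon holds almost no Paneth cells, whereas cells with Paneth features appear in the inflamed or neoplastic colon. Wnt signaling through beta-catenin and TCF factors drives their maturation and the expression of defensin genes.

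The 28 alpha-defensin genes form a single cluster on mouse chromosome 8 (chr8:21025545-21735471, GENCODE M21, GRCm38), over 709927 bases. In the annotation, 23 lie on the plus strand, with 276 to 285 coding bases each, and 5 lie on the minus strand (Defa29, Defa38, Defa39, Defa42 and Defa43), with 348 coding bases each. Among the plus-strand copies, 22 encode the spacing of 6 cysteines that holds a mature alpha-defensin in its fold. None of the minus-strand copies does, and each of them has 11 cysteine codons where a plus-strand copy has 6 or 7. The stretches below run from the first to the last cysteine codon of a coding sequence and show how alike the copies are, which bears on every value of a single row. Defa24 (chr8:21734494-21735471, plus strand) had the highest TPM of the family, and capitals in Defa30 (chr8:21134642-21135598, plus strand) and Defa3 (chr8:21287409-21288377, plus strand) mark bases that differ from Defa24. Defa17 shares the stretch of Defa3 without a difference, and Defa33, Defa20 and Defa32 share that of Defa2 (chr8:21378515-21379495, plus strand), which is shorter and printed without capitals. In Defa42 (chr8:21455445-21456560, minus strand), capitals mark the cysteine codons.
Defa24: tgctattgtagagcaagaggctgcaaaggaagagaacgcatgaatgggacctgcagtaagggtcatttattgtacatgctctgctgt
Defa30: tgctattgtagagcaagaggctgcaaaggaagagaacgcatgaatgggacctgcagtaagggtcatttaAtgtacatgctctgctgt
Defa3: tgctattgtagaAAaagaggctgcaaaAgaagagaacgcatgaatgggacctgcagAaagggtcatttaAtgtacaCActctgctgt
Defa2: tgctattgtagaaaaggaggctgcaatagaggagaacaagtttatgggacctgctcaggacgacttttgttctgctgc
Defa42: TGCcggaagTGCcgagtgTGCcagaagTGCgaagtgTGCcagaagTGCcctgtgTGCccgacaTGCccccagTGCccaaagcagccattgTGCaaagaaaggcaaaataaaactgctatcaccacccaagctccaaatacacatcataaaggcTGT
Codons 64 to 92, counted from the start codon, are shown for Defa24, Defa30 and Defa3, codons 64 to 89 for Defa2 and codons 65 to 116 for Defa42. Defa30 differs from Defa24 in 1 of these 87 bases and Defa3 in 7.

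Over the 378 pairs of alpha-defensins, 80.3% to 100% of aligned coding bases were identical, with a median of 84.9%. Every one of the 28 copies has another that is at least 95% identical, and 6 pairs have the same coding sequence (Defa2 with Defa33, Defa3 with Defa17, Defa20 with Defa32, Defa23 with Defa31, Defa36 with Defa37, and Defa42 with Defa43). The 5 minus-strand copies were 96.0% to 100% identical among themselves and 80.3% to 86.4% identical with the plus-strand copies. Reads of such copies can be shared out among rows by the quantification, and how that was done is not given in the sources used here. Values of single rows are therefore uncertain, and sums over copies whose predicted proteins are at least 95% identical are given beside them. There are 9 such groups with at least 2 rows, which hold 24 of the 28 rows.

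RefSeq promoter windows, from 250 bases before to 50 after a transcript start (GRCm38.p6), were matched for 16 of the alpha-defensins. They were searched on both strands for the core of TCF/LEF sites (CTTTG followed by 2 bases that are each A or T), for the TATA box (TATAAA) and for the p53 half-site consensus. These motifs do not overlap in the windows printed here. The 250 bases before the start are shown for 2 plus-strand copies. They carry the TCF/LEF core and TATA letters found in most of the 16 windows. Also shown is a minus-strand copy that lacks the TCF/LEF core. Capitals mark both motifs, and ATCAAAG is CTTTGAT read on the other strand.
Defa20 (chr8:21509008-21509257, plus strand): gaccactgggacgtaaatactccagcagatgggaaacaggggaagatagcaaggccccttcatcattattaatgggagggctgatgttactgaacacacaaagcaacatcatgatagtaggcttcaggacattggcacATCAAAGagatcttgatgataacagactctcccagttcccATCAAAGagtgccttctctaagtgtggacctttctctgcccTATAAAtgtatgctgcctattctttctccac
Defa30 (chr8:21134400-21134649, plus strand): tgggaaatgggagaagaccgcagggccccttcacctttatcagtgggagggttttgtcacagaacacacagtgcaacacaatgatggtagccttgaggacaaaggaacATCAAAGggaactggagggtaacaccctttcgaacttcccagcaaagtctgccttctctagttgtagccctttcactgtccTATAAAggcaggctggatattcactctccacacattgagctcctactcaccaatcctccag
Defa42 (chr8:21456518-21456767, minus strand): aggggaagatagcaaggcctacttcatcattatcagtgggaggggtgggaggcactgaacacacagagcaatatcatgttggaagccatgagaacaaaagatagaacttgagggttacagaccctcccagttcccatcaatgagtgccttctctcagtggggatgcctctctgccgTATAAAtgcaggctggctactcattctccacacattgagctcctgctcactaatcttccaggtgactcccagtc
A TCF/LEF core was found in 13 of 16 alpha-defensin windows (81.2%), against 16.9% of all 32851 RefSeq windows of that length. All 13 plus-strand windows held it and 0 of the 3 minus-strand windows, those of Defa38, Defa42 and Defa43. TATAAA was present in 15 of 16 (93.8%), against 13.6% of all windows, and the p53 half-site in 0 of 16, against 8.36%. Among 6 windows of the other genes, those of Lyz1 and Ang4 each held 1 p53 half-site and neither of the other motifs. Each window of Mmp7 held 1 TCF/LEF core, and TATAAA matched 2 times in its upstream window and 0 times in the other. The windows of Itln1 and Nod2 held none of the motifs. The windows of Defa20 and Defa2 are the same in all 300 bases. A match of letters is a description and not a binding site, and the alpha-defensin windows are copies of each other rather than independent sequences.

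Values are TPM, which are scaled for transcript length, so that levels can be compared between genes, and for the total of each tumor. TPM keep no number of reads, and the depth of the tumors is unknown. Between 14857 and 15234 genes per tumor reached at least 1 TPM. Trp53, the targeted gene, was at 99.3 to 147 TPM in Trp53fl/fl tumors and at 27.8 to 38.5 TPM in VP tumors, which fits the labels. Genotypes were compared as VP minus Trp53fl/fl on the log2(TPM + 1) scale, on which genes of low level appear to change less than they do, with limma over the 15117 genes of at least 1 TPM in at least 3 tumors. Of the 34 genes, 32 passed this filter, Defa25 and Defa31 being listed at 0 in all 6 tumors. In a bulk tumor, fewer cells of a type and less RNA per cell cannot be told apart.

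Alpha-defensins were among the abundant transcripts of these colon tumors, and their level ranged widely within each genotype. Their summed TPM was 31558, 13749 and 6257 in Trp53fl/fl replicates 1 to 3 and 5076, 1917 and 10393 in VP replicates 1 to 3. The genotypes overlapped, because VP replicate 3 lay above Trp53fl/fl replicate 3. The sum made up 3.16%, 1.37% and 0.626% of all TPM in the Trp53fl/fl tumors and 0.508%, 0.192% and 1.04% in the VP tumors. The mean of the 3 Trp53fl/fl tumors was 17188 ± 12996 TPM (SD, n = 3), that of the 3 VP tumors was 5796 ± 4284 TPM (SD, n = 3), and the ratio of 2.97 corresponds to -1.57 as log2 of VP over Trp53fl/fl. Pooled over the genotypes, the SD between tumors of one genotype was 1.20 on the log2 scale, and the highest tumor exceeded the lowest 16.5-fold. Without Trp53fl/fl replicate 1, the tumor with the highest sum, the log2 ratio was -0.79, and without VP replicate 3 it was -2.30.

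Each of the 26 alpha-defensins with a measured level had its highest value in Trp53fl/fl replicate 1 and a lower mean in VP than in Trp53fl/fl tumors. The ratio of the Trp53fl/fl mean to the VP mean ran from 1.97 to 8.90, with a median of 3.01. VP replicate 2 was the lowest tumor for 20 of them, and VP replicate 3 was at or above Trp53fl/fl replicate 3 for 22. In 4 of the 26 the genotypes did not overlap, with VP lower, whereas 13.3% of all genes tested separated in that direction.

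**Figure D1:**
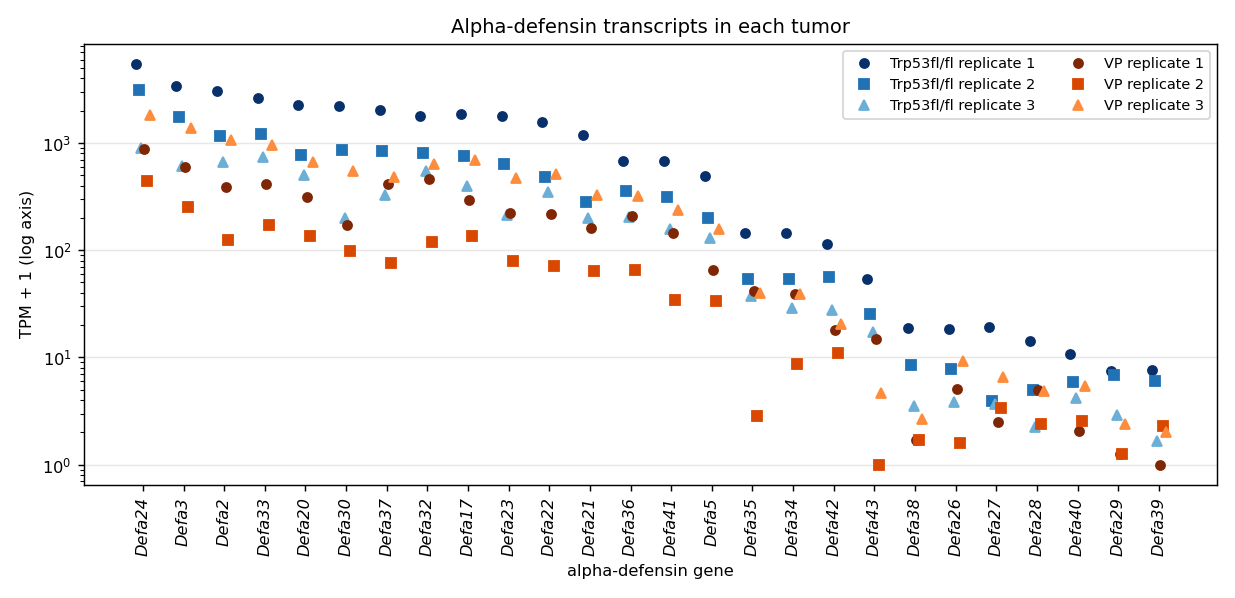
TPM + 1 on a log axis (y) of the 26 alpha-defensins with a measured level, ordered by their mean in Trp53fl/fl tumors (x), with 1 point for each of the 6 tumors. Trp53fl/fl replicate 1 is the highest tumor for all 26 genes, and VP replicate 2 is the lowest for 20.

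Among the alpha-defensins with a mean of at least 1000 TPM in Trp53fl/fl tumors, of which there are 9, Defa24 led in all 6 tumors. It was at 5446, 3144 and 899 TPM in Trp53fl/fl replicates 1 to 3 and at 885, 439.7 and 1821 TPM in VP replicates 1 to 3. Defa24 alone provided 14.4% to 22.9% of the alpha-defensin sum. Its log2 fold change was -1.48 with a standard error (SE) of 0.73, and VP replicate 3 again lay above Trp53fl/fl replicate 3.

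Defa30, which nearly matches Defa24 in its mature part, was at 2206, 856 and 201 TPM in Trp53fl/fl tumors and at 172, 97.8 and 552 TPM in VP tumors. Defa3 was at 3432, 1733 and 611 TPM against 599, 253 and 1375 TPM in VP tumors. Defa17, its twin in coding sequence, was at 1855, 755 and 396 TPM against 294, 135 and 695 TPM. In all these copies the order of the 6 tumors was the order of the sum, with VP replicate 3 just after Trp53fl/fl replicates 1 and 2.

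The group of Defa2, Defa33, Defa20 and Defa32 had the largest mean of summed TPM of any group of copies in each genotype. Its sum was 9669, 3941 and 2458 TPM in Trp53fl/fl tumors and 1576, 545 and 3329 TPM in VP tumors. In Trp53fl/fl replicate 2 the sum of Defa30 and Defa24 was higher, at 4000 TPM. Defa2 was at 3033, 1157 and 669 TPM in Trp53fl/fl tumors and at 389.8, 123 and 1075 TPM in VP tumors. Defa33, with the same coding sequence, was at 2597, 1201 and 739 TPM against 410.2, 169.5 and 954 TPM. Defa33 was at 0.856 to 1.38 times the level of Defa2 over the 6 tumors. Defa20 was at 2258, 779 and 502 TPM in Trp53fl/fl tumors and at 315, 136 and 663 TPM in VP tumors. For Defa32 the values were 1782, 804 and 549 TPM against 461, 117 and 638 TPM. The log2 fold changes of these 4 rows lay between -1.83 (Defa2, SE 0.83) and -1.50 (Defa32, SE 0.68).

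Defa37 was at 2045, 838 and 325 TPM in Trp53fl/fl tumors and at 415, 75.8 and 483 TPM in VP tumors. Defa36, which has the same coding sequence, was lower, at 678, 352 and 202 TPM against 209, 64.8 and 318 TPM. Together with Defa35, Defa41, Defa5 and Defa34 they form a group of 6 rows, whose sum was 4173, 1805 and 876 TPM in Trp53fl/fl tumors and 912, 216 and 1268 TPM in VP tumors. In this group VP replicate 2 stood lowest, and VP replicates 1 and 3 lay above Trp53fl/fl replicate 3. Defa41 was at 673, 311 and 155 TPM in Trp53fl/fl tumors and at 145, 33.5 and 234 TPM in VP tumors. Defa5 was at 492, 199 and 129.5 TPM against 63.8, 32.8 and 156 TPM. The rows with the lowest levels in the group were Defa35, at 142, 52.5 and 36.0 TPM against 41.1, 1.84 and 39.1 TPM, and Defa34. Defa34 was at 142, 52.9 and 27.9 TPM in Trp53fl/fl tumors and at 38.2, 7.61 and 38.1 TPM in VP tumors.

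Defa23 was at 1777, 633 and 213 TPM in Trp53fl/fl tumors and at 219, 78.1 and 469 TPM in VP tumors. Its coding twin Defa31 was listed at 0 throughout, so that reads of both may stand under Defa23, which was not tested. Defa22 was at 1569, 481 and 346 TPM in Trp53fl/fl tumors against 216, 70.7 and 509 TPM. Defa21 was at 1178, 283 and 198 TPM against 161, 63.5 and 325 TPM. For Defa22 and Defa21, VP replicate 3 lay above both Trp53fl/fl replicates 2 and 3.

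The make-up of the alpha-defensin transcripts kept its main components in the 6 tumors, with shifts between groups of copies. The group of Defa2 held 28.4% to 39.3% of the sum, and Defa30 with Defa24 held 17.6% to 29.1%, both ends of the latter being Trp53fl/fl tumors. The shares were 16.1% to 20.2% for Defa3 with Defa17 and 11.3% to 18.0% for the 6 rows with Defa37. Across the 15 alpha-defensins with a Trp53fl/fl mean of at least 100 TPM, Pearson's r between any 2 tumors was 0.858 to 0.965 over 15 pairs, and Spearman's rho was 0.818 to 0.957. These points are genes of one cluster that share sequence, and their levels span a wide range, so r is given only as a description and does not show equal shares. The ratio of the Trp53fl/fl to the VP mean ran from 2.08 to 3.97 among the 15, and 10 of them had the 6 tumors in the order of the sum. In Trp53fl/fl replicate 1, the 5 rows with the highest TPM held 53.1% of the sum.

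**Figure D2:**
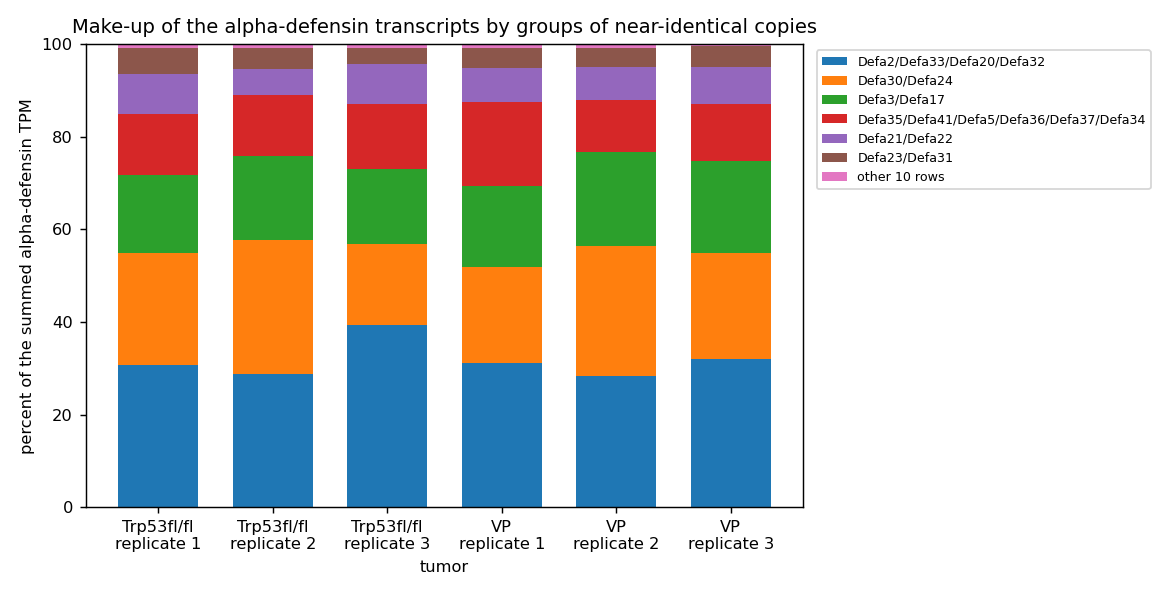
Percent of the summed alpha-defensin TPM (y) contributed by each group of near-identical copies in each of the 6 tumors (x), with the less abundant groups drawn together. The group of Defa2 holds 28.4% to 39.3% and Defa30 with Defa24 17.6% to 29.1% of sums that range from 1917 to 31558 TPM.

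Among weakly expressed plus-strand copies, Defa26 was at 17.2, 6.85 and 2.80 TPM in Trp53fl/fl tumors and at 4.11, 0.59 and 8.36 TPM in VP tumors. Defa27 was at 18.1, 2.96 and 2.70 TPM against 1.49, 2.37 and 5.62 TPM. Defa40 was at 9.77, 4.92 and 3.16 TPM against 1.06, 1.58 and 4.37 TPM. In each of the 3, VP replicate 3 exceeded Trp53fl/fl replicate 3. Defa28, the plus-strand copy with a level that lacks the usual cysteine spacing, was at 13.1, 4.02 and 1.23 TPM in Trp53fl/fl tumors and at 4.0, 1.41 and 3.89 TPM in VP tumors. Its log2 fold change of -0.47 (SE 0.65) was the smallest of the family and turned to 0.22 without Trp53fl/fl replicate 1.

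The 5 minus-strand copies with 11 cysteine codons had larger ratios of means than the plus-strand copies. Their fold changes on the log2(TPM + 1) scale overlapped those of the plus-strand copies. This split was made after the values were seen and is given without a test. The copies are near-identical, so they are not separate observations. The VP means of Defa38, Defa29 and Defa39 were only 1.04, 0.643 and 0.777 TPM, where a ratio is unstable. The ratio of the Trp53fl/fl to the VP mean was 4.19 to 8.90 for the 5 minus-strand copies (median 5.33) and 1.97 to 3.97 for the 21 plus-strand copies with a level (median 2.81). Defa42 was at 113, 55.6 and 27.0 TPM in Trp53fl/fl tumors and at 16.9, 10.1 and 19.7 TPM in VP tumors. Defa43 was at 52.6, 24.6 and 16.2 TPM against 13.9, 0 and 3.61 TPM. In both, every VP tumor lay below every Trp53fl/fl tumor, and VP replicate 3 did not rise above Trp53fl/fl replicate 3 as it did in most of the family.

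Defa38 was at 17.7, 7.49 and 2.52 TPM in Trp53fl/fl tumors and at 0.71, 0.71 and 1.69 TPM in VP tumors. Defa29 was at 6.43, 5.81 and 1.88 TPM against 0.25, 0.26 and 1.42 TPM. Both separated the genotypes, but both passed the filter through the Trp53fl/fl tumors and only 1 VP tumor at 1 TPM. Defa39 was at 6.64, 5.06 and 0.68 TPM in Trp53fl/fl tumors and at 0, 1.31 and 1.02 TPM in VP tumors, with overlap. On the log2(TPM + 1) scale the 5 copies did not stand apart, with -2.81 (SE 0.93) for Defa43, -2.05 (SE 0.57) for Defa38, -1.82 (SE 0.49) for Defa42, -1.75 (SE 0.44) for Defa29 and -1.35 (SE 0.60) for Defa39.

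Lyz1 (chr10:117287797-117292868, minus strand), which encodes the lysozyme of Paneth cell granules, was at 3146, 2406 and 1500 TPM in Trp53fl/fl replicates 1 to 3. In VP replicates 1 to 3 it was at 795, 304 and 1713 TPM. The 6 tumors stood in the order of the alpha-defensin sum, which held for Lyz1 alone among the other 6 genes. Its log2 fold change was -1.59 (SE 0.60), and -0.94 without VP replicate 2. The alpha-defensin sum was 10.03, 5.71 and 4.17 times the Lyz1 TPM in Trp53fl/fl tumors and 6.38, 6.31 and 6.07 times in VP tumors. Lyz2, the lysozyme gene of macrophages and a near copy of Lyz1, was at 752.5, 722 and 775 TPM in Trp53fl/fl tumors and at 515, 783 and 787 TPM in VP tumors, without such an order.

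Ang4 (chr14:51763878-51773590, minus strand) encodes angiogenin 4, an antimicrobial ribonuclease, and Itln1 (chr1:171518122-171535294, minus strand) encodes intelectin 1, a lectin that binds microbial sugars. Ang4 was at 866, 1244 and 516 TPM in Trp53fl/fl tumors and at 54.9, 99.4 and 425 TPM in VP tumors. Itln1 was at 684, 451 and 453 TPM against 78.4, 75.8 and 450.1 TPM. Neither overlapped between genotypes, yet VP replicate 3 came within 1 TPM of the lowest Trp53fl/fl tumor for Itln1. The log2 fold changes were -2.62 (SE 0.71) for Ang4 and -1.89 (SE 0.65) for Itln1. Without VP replicate 3 that of Itln1 was -2.73, and this gene then passed the adjustment over all genes (limma adjusted p = 0.0212), the single such case among the alternatives.

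Mmp7 and Pla2g2a differed from Lyz1, Ang4 and Itln1 in the size of the genotype difference. Mmp7 (chr9:7692090-7699585, plus strand), the processing protease, was at 1394, 943 and 858 TPM in Trp53fl/fl tumors and at 1034, 1289 and 1064 TPM in VP tumors. The genotypes overlapped, the 6 tumors spanned 1.62-fold, and the log2 fold change was 0.11 (SE 0.20). Epithelial tumor cells as well as Paneth cells are known to make Mmp7. The alpha-defensin sum was 22.6, 14.6 and 7.29 times the Mmp7 TPM in Trp53fl/fl tumors and 4.91, 1.49 and 9.76 times in VP tumors. Pla2g2a (chr4:138831857-138835186, plus strand) encodes a secreted phospholipase of Paneth cells, and its C57BL/6 allele is known to be disrupted. GENCODE lists it as a polymorphic pseudogene. Its transcript was at 570.2, 391 and 403 TPM in Trp53fl/fl tumors and at 739.8, 209 and 516 TPM in VP tumors. The genotypes overlapped, and the log2 fold change was -0.06 (SE 0.43).

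Nod2 (chr8:88647315-88688474, plus strand), an intracellular sensor of bacterial peptidoglycan that Paneth cells and immune cells express, was the only one of the 32 genes with every VP tumor above every Trp53fl/fl tumor. It was at 2.81, 1.95 and 2.51 TPM in Trp53fl/fl tumors and at 3.11, 5.0 and 4.99 TPM in VP tumors. The log2 fold change was 0.63 (SE 0.22), at a level far below that of the secreted products. Among all genes tested, 6.03% separated in this direction.

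**Figure D3:**
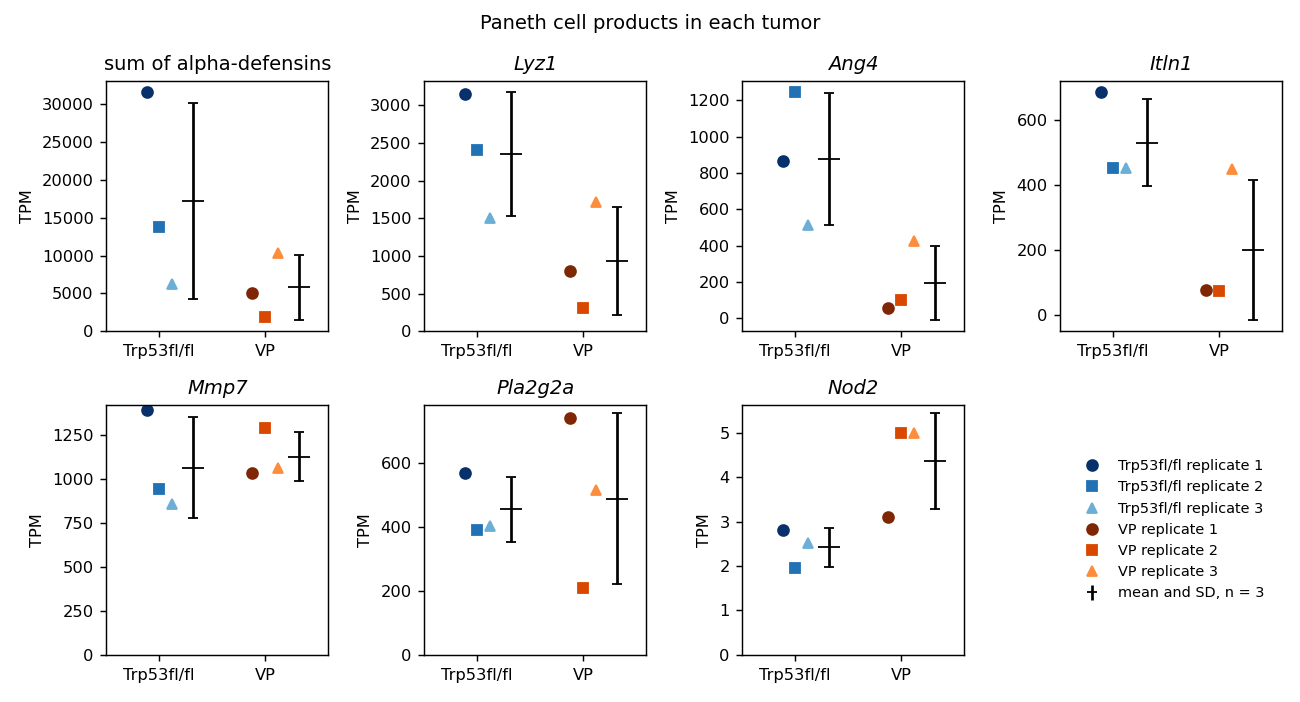
TPM (y, linear) of the summed alpha-defensins and of Lyz1, Ang4, Itln1, Mmp7, Pla2g2a and Nod2 in Trp53fl/fl and VP tumors (x), with 1 point per tumor and the mean with SD of 3 tumors beside them. Lyz1 follows the defensin sum from tumor to tumor, VP replicate 3 is the highest VP tumor for Ang4 and Itln1, and Mmp7 and Pla2g2a overlap between genotypes.

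Of the 32 genes tested, 0 passed a limma adjusted p of 0.05, against 0.165% of all genes tested. The smallest adjusted p among them was 0.269. At an unadjusted p under 0.05, 10 were lower in VP tumors (8.0% of all genes tested were) and 1 was higher (4.51%). Because the genes were picked for this difference, nothing is read from these shares. The median log2 fold change was -1.61 over the 26 alpha-defensins and -0.07 over all genes tested.

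**Figure D4:**
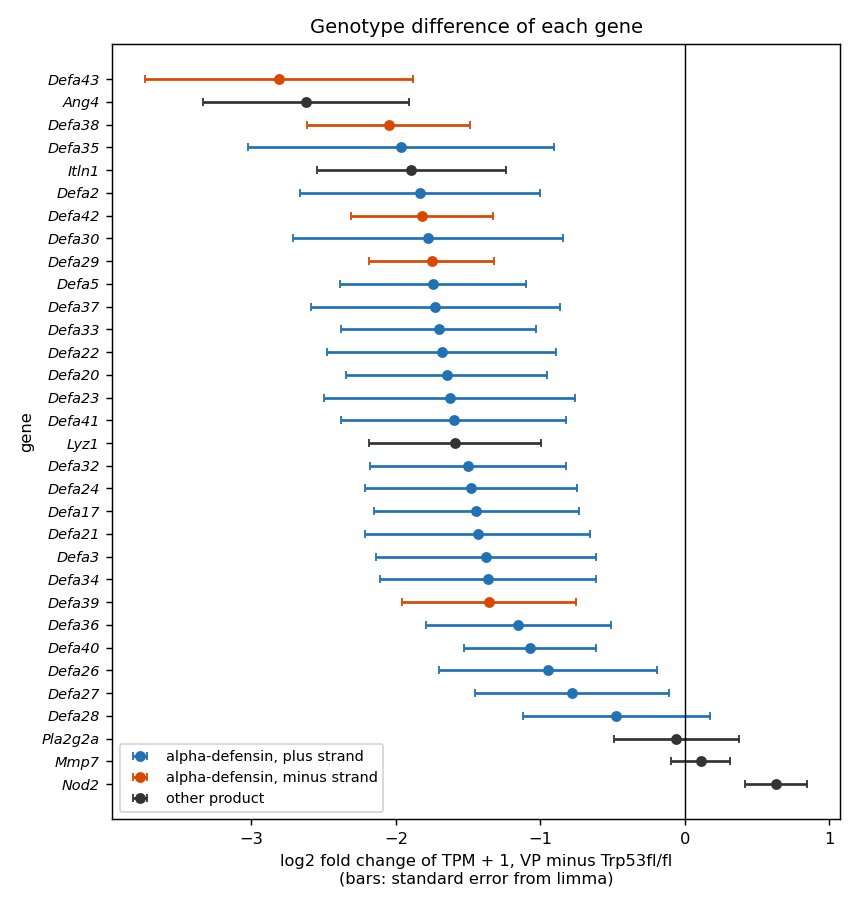
Log2 fold change of TPM + 1, VP minus Trp53fl/fl (x), of the 32 genes tested (y), with bars for the standard error from limma and colors for plus-strand alpha-defensins, minus-strand alpha-defensins and the other products. The 26 alpha-defensins lie between -2.81 and -0.47, with standard errors around 0.72, and Nod2 lies at 0.63.

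The spread between tumors of one genotype was large for alpha-defensins. The within-genotype SD of log2(TPM + 1) had a median of 1.17 over the 26 alpha-defensins, with a range of 0.66 to 1.73, against 0.21 over all genes tested. A SD of that size or more was found in 1.34% of the genes tested. Among the 1119 genes with a mean log2 value of at least 7, the median SD was 0.17, whereas the 15 alpha-defensins at that level had SDs of 1.04 to 1.52. Only 37 of the 1119 genes reached 1.04. That value is the lowest SD of these 15 alpha-defensins, so all 15 are among the 37 by construction. The SD was 0.96 for Lyz1, 1.16 for Ang4 and 1.06 for Itln1, but 0.29 for Mmp7. These rows are no independent observations, since reads and sequence are shared among them.

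**Figure D5:**
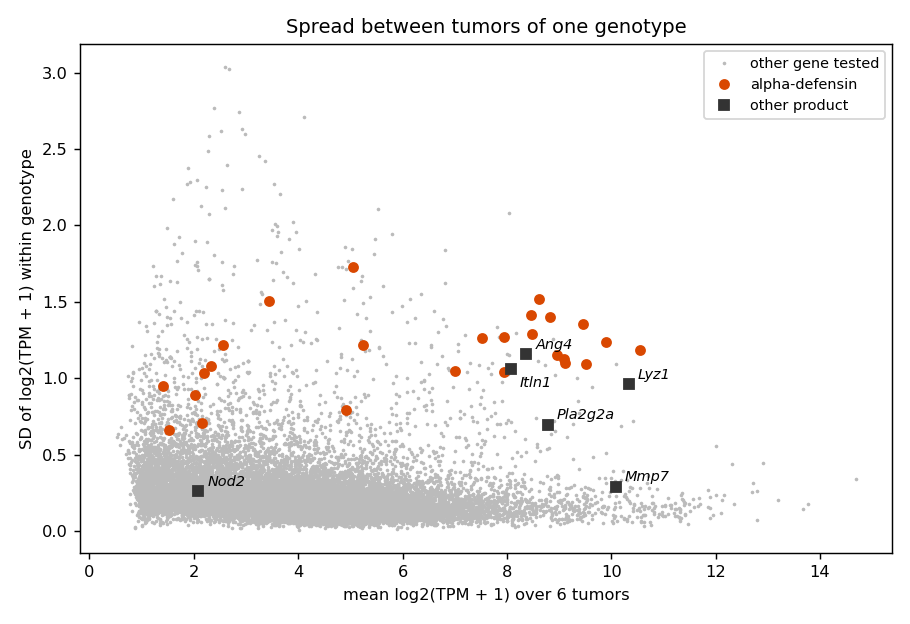
SD of log2(TPM + 1) between tumors of one genotype (y) against the mean log2(TPM + 1) over 6 tumors (x) for all 15117 genes tested, with alpha-defensins and the other products marked. The 15 alpha-defensins with a mean of at least 7 have SDs of 1.04 to 1.52, above most genes of that level. Mmp7 (0.29) and Nod2 (0.26) lie below every alpha-defensin but above the median of all genes tested (0.21).

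The list of 18 regulators of the Paneth lineage held 9 genes with positive and 9 with negative log2 fold changes. Without Ctnnb1, which encodes beta-catenin and makes up most of the summed level, the other 17 summed to 467 to 539 TPM in Trp53fl/fl tumors and 484 to 523 TPM in VP tumors. Of the 18 genes, 0 passed the adjustment in either direction, and at an unadjusted p under 0.05 1 was lower and 0 were higher (limma). Their median log2 fold change was -0.04. Wnt3, which encodes a Wnt ligand that Paneth cells secrete, was at 3.13, 2.21 and 3.16 TPM in Trp53fl/fl tumors and at 1.21, 0.95 and 2.29 TPM in VP tumors (log2 fold change -0.65, SE 0.25). Lef1, a partner of beta-catenin at Wnt target genes, was at 20.4, 17.7 and 20.8 TPM against 15.4, 6.16 and 14.99 TPM (log2 fold change -0.74, SE 0.32). The genotypes overlapped for Wnt3 and not for Lef1. Ern1, an endoplasmic reticulum stress sensor, had a log2 fold change of -0.23 (SE 0.11).

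In the list of 12 genes of the Nod2 pathway, 0 passed the adjustment, 3 were higher and 1 was lower at an unadjusted p under 0.05, and the median log2 fold change was -0.15. Ripk2, the kinase that Nod2 recruits, was at 6.14 to 7.10 TPM in Trp53fl/fl tumors and at 5.58 to 7.39 TPM in VP tumors, and was picked out for that role after its values were seen. Birc3, a ubiquitin ligase of the complex, was at 31.3, 34.6 and 30.1 TPM in Trp53fl/fl tumors and at 43.0, 42.5 and 53.5 TPM in VP tumors (log2 fold change 0.52, SE 0.13). Tnfaip3, a brake on NF-kappaB signaling, had a log2 fold change of 0.46 (SE 0.14), and Map3k7, which encodes the kinase TAK1, one of -0.39 (SE 0.13).

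Other antimicrobial genes of Paneth cells or mucosa had fold changes of both signs, 10 positive and 5 negative. Of the 20 genes on this list, 15 were tested, 1 passed the adjustment as higher in VP tumors and 0 as lower, and the median log2 fold change was 0.28. Reg3b, an antimicrobial lectin made by many epithelial cells, was the gene that passed (log2 fold change 2.94, limma adjusted p = 0.0143), and in 4 alternatives it did not. Mptx1, a pentraxin of the gut, was at 272, 431 and 778 TPM in Trp53fl/fl tumors and at 79.6, 54.0 and 60.1 TPM in VP tumors (log2 fold change -2.80, limma adjusted p = 0.0545). VP replicate 3 was not raised for Mptx1. Its adjusted p was 0.0350 with centring on epithelial markers, where the median of all genes shifts to -0.25. Pla2g10, another secreted phospholipase, had a log2 fold change of 0.49 without that centring (limma adjusted p = 0.280).

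Markers of other cells were read beside these values, and none of the genes named from them passed the adjustment except Ngp. Of 12 markers of small intestinal enterocytes, 5 were tested and 7 stayed below the filter, with Apoc3 at 0 in all tumors. The summed level was 18.8 to 29.7 TPM in Trp53fl/fl tumors and 21.2 to 37.1 TPM in VP tumors, and the 5 markers tested lay between 1.28 and 19.3 TPM. Fabp6, a bile acid binding protein of the ileum, was at 1.41, 4.31 and 2.30 TPM in Trp53fl/fl tumors and at 5.12, 9.83 and 7.01 TPM in VP tumors, without overlap (log2 fold change 1.22, SE 0.33). Rbp2, a retinol binding protein, was at 4.90, 11.1 and 4.26 TPM against 19.3, 8.84 and 6.84 TPM, with overlap. The log2 fold changes were 0.69 (SE 0.43) for Rbp2 and 0.26 (SE 0.17) for Mttp, which loads lipoproteins, and of the 5 tested 3 were positive and 2 negative.

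The 8 markers of colonocytes and colon position were all detected and summed to 1247 to 1747 TPM against 1036 to 1373 TPM. Among them 5 had positive and 3 negative log2 fold changes, those of Car1, Hoxb13 and Saa1 being -0.94 (SE 0.29), 0.20 (SE 0.11) and -0.27 (SE 0.23). Hoxd13, a gene of the distal hindgut picked out after its values were seen, was at 9.06, 0.75 and 60.9 TPM in Trp53fl/fl tumors and at 1.46, 7.06 and 53.5 TPM in VP tumors. It thus differed widely within each genotype.

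The 8 goblet cell markers summed to 8107 to 9692 TPM in Trp53fl/fl tumors and 8530.1 to 12128 TPM in VP tumors, with none at 0 and with 3 positive and 5 negative log2 fold changes. Clca1, a secreted goblet cell protein, had one of -1.54 (SE 0.38), and the lectin Zg16 and the trefoil peptide Tff3 had 0.80 (SE 0.45) and 0.39 (SE 0.24). The 8 macrophage markers summed to 1177 to 1265 TPM against 1021 to 1437 TPM, with 5 positive and 3 negative log2 fold changes, among them 0.53 (SE 0.13) for Cd68, 0.79 (SE 0.21) for Cd14 and 0.20 (SE 0.12) for C1qa. The 6 enteroendocrine markers summed to 89.7 to 329 TPM against 313 to 552 TPM, and Pyy, Chgb and Chga had log2 fold changes of 1.54 (SE 0.48), 0.93 (SE 0.32) and 0.86 (SE 0.38).

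The 12 epithelial markers summed to 11256 to 11894 TPM in Trp53fl/fl tumors and 12765 to 13966 TPM in VP tumors, so that their sum was higher in the VP tumors, which had the smaller mean of alpha-defensins. Of these 12, 11 had a positive log2 fold change, with 0.47 (SE 0.13) for Lgals4, 0.37 (SE 0.11) for Cldn7 and 0.39 (SE 0.14) for Krt19. The 10 neutrophil markers summed to more in every VP tumor than in any Trp53fl/fl tumor, with 262 to 604 TPM against 1111 to 1911 TPM. Ngp was at 0.81, 0.21 and 0.62 TPM in Trp53fl/fl tumors and at 48.4, 18.2 and 32.1 TPM in VP tumors. It passed the adjustment as higher in VP tumors (log2 fold change 4.37, limma adjusted p = 0.0080). Ngp did not pass without the filter, without Trp53fl/fl replicate 1 or without Trp53fl/fl replicate 3. With any VP tumor left out it fell below the filter and was not tested. Retnlg did not pass, at 41.8, 18.9 and 40.1 TPM against 232.5, 182 and 147.5 TPM (limma adjusted p = 0.0521). Camp was at 0 in every Trp53fl/fl tumor and at 2.53 to 6.14 TPM in VP tumors (limma adjusted p = 0.0546). Ngp and Camp met the filter only through the VP tumors, where they are high, so their p-values are given only as a description. The part of these cell types, and of tumor position, in the Paneth cell genes was not tested.

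The genes whose log2 levels followed the alpha-defensin sum most closely over the 6 tumors were sought outside the 34 genes, among 1414 genes that varied at least 4-fold. Of the first 5 by Pearson's r, only Defa-ps6, an alpha-defensin pseudogene, had a mean above 10 TPM. It was at 139, 39.3 and 20.4 TPM in Trp53fl/fl tumors and at 19.7, 11.5 and 25.9 TPM in VP tumors (r = 0.941, n = 6), and its reads may overlap with those of the coding copies. The other 4 were Gm18622, Gm43863 and a pair of assembled transcripts without a name.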

How the data were processed

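The authors selected poly(A) RNA and sequenced it from both ends, and they deposited TPM per gene, with 2 decimals, 1 column per tumor. The submitters' processing notes name HISAT2, StringTie and the build mm9, without their roles, and settings are not given in the sources used here. TPM keep no counts, so no count test and no counting interval could be had. Groups came from the sample labels, and no 2 columns were identical. The members and all gene lists were chosen with earlier results of these data known. The genes that reached 1 TPM in 3 or more tumors were tested on log2(TPM + 1) with limma 3.58.1 in R 4.3.3 (empirical Bayes with trend, Benjamini-Hochberg adjustment), after a run on simulated data. All IDs of the 34 genes have an entry in GENCODE M21 (GRCm38), 6 of the alpha-defensins under another name. Copy groups (single linkage) rest on proteins translated from its coding sequences with Biopython 1.88, a choice made after the files were seen, since no RefSeq proteins were used here. Identity is the share of the shorter sequence. Named were all members with a level, and from each list the genes that passed and the 3 with the smallest p. Lyz2, Ripk2, Ctnnb1 and Hoxd13 were named after their values were seen. The alternatives were a pseudocount of 0.1, no filter, a filter at a mean of 5 TPM, median-of-ratios rescaling, centring on or division by 12 epithelial markers, the replicate number as a block, no trend, summed copies, group medians, and each tumor left out.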

Additional observations from a re-analysis of the deposited data

How the results depend on the processing

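What caused the changes listed here was not tested. No member passed the adjustment under any alternative except Itln1 without VP replicate 3 (0 to 1 with a tumor left out). The log2 ratio of the summed alpha-defensins was -1.49 with median-of-ratios rescaling, -1.78 with division by epithelial markers, -1.44 for group medians, and from -2.30 to -0.79 when single tumors were left out. With a tumor left out, the log2 fold change ran from -1.11 to 0.22 for Defa28, from -0.45 to 0.46 for Pla2g2a and from -0.029 to 0.32 for Mmp7. These signs turned without Trp53fl/fl replicate 1 (Defa28 and, at 0.12, Pla2g2a), without VP replicate 2 (Pla2g2a) and without Trp53fl/fl replicate 3 (Mmp7). Pla2g2a also turned, to 0.014, with median-of-ratios rescaling, and Mmp7, to -0.0669, with epithelial centring. For the log2 ratio of means the ranges were -2.04 to 0.16 for Defa27 and -1.47 to 0.24 for Defa28. In 336 of 337 alternative values the alpha-defensins stayed lower in VP tumors. These values come from the same tumors and from rows that share sequence and reads, so they are not independent. The genes were also picked for this difference, and no matching share was computed over all genes. The count is therefore only a description and cannot show that the difference is robust. The 25 genes called became 7 without the filter and 3 to 23 with a tumor left out, and the 2 list genes called became 0 without the filter and 0 to 3 with a tumor left out. Replicate numbers pair no tumors, since deviations of same-numbered tumors correlated at -0.052 to 0.019. With the replicate number as a block, 10 genes were called and no member was. The unknown depth and 3 tumors per genotype limit all values.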
